A study of Caenorhabditis elegans with 6 samples.

Results

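The vacuolar H+-ATPase (V-ATPase) is a rotary proton pump that acidifies lysosomes and other compartments and, in some epithelia, pumps protons across the cell surface. Its cytosolic V1 sector hydrolyses ATP, and its membrane V0 sector carries the protons through a ring of proteolipid subunits beside the large a subunit. Beside the pump, the lysosomal membrane holds glycoproteins, sterol carriers, amino acid exporters and ion channels. In C. elegans the intestine is rich in lysosomes and related organelles. Transcripts of 34 such genes were examined by WormBase symbol among the 46904 gene IDs in the files. They comprised 12 V0 subunits and accessory proteins, 9 V1 subunits and 13 lysosome membrane proteins.

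Caffeine-treated worms were wild-type hermaphrodites of strain N2 (genotype N2) that spent 72 h from the fourth larval stage at 25 °C on seeded nematode growth agar with 10 mM caffeine, a methylxanthine. Control worms were the same in strain, sex, food, temperature and stage but received 0 mM caffeine. All were harvested whole on day 3 of adulthood, about 300 worms pooled per replicate, with 3 replicate libraries of polyadenylated RNA in each group. The study's title concerns lysosomal breakdown of lipids, and the present comparison asks how genes of the lysosomal membrane and its pump stood with and without caffeine.

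The libraries held between 40417780 and 40746556 expected counts, which are estimated reads per gene. Correlations of log2 CPM (read counts scaled to a common library size and composition) over the tested genes ran from 0.986 to 0.992 within a group and from 0.955 to 0.978 between groups, a description in which genes are not independent replicates. RNA of the intestine, epidermis, excretory canal, neurons, coelomocytes, muscle and germline was present, since summed marker levels were above 0 in every library, and several of these sums differed between the groups. Sperm markers stood apart in single libraries. They summed to between 3.78 and 9.01 CPM with caffeine, highest in library 1, and to between 5.03 and 27.7 CPM in controls, highest in library 2. All 34 genes passed the filter on low counts, and all of their values were whole in all 6 libraries.

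With caffeine, 9 of 21 pump genes were called higher, most of them in V0, and a few lysosome membrane protein genes were called in either direction. In V0, 7 of 12 genes were called higher and 0 lower (quasi-likelihood test of edgeR, adjusted p after Benjamini-Hochberg under 0.05). In V1, 2 of 9 were called higher and 0 lower. DESeq2 and limma-voom also called 0 lower in either sector, and 0 were lower at an unadjusted p under 0.05. Among lysosome membrane proteins 1 of 13 was called higher and 3 lower. Over all 14200 tested genes, 13.8% were called higher and 10.5% lower. All 21 pump genes averaged at least 1000 counts, and of the 5848 tested genes that did so 8.87% were called higher and 14.1% lower. The median log2 fold change was 0.23 in V0, 0.09 in V1 and -0.12 among lysosome membrane proteins, beside -0.0007 over all tested genes. Over the tested genes that averaged at least 1000 counts that median was -0.0461. The count of V0 genes called higher was 4 without caffeine library 2 and 3 without caffeine library 3, control library 2 or control library 3. In V1 that count was 1 without caffeine library 2, caffeine library 3 or control library 2, and 3 without caffeine library 1. Lysosome membrane proteins had 1 called lower without caffeine library 3, control library 1 or control library 3, 2 without caffeine library 2 or control library 2, and 0 called higher without any one library other than caffeine library 1. In bulk RNA from whole animals, fewer or more cells of a type cannot be told apart from less or more RNA per cell.

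**Figure D1:**
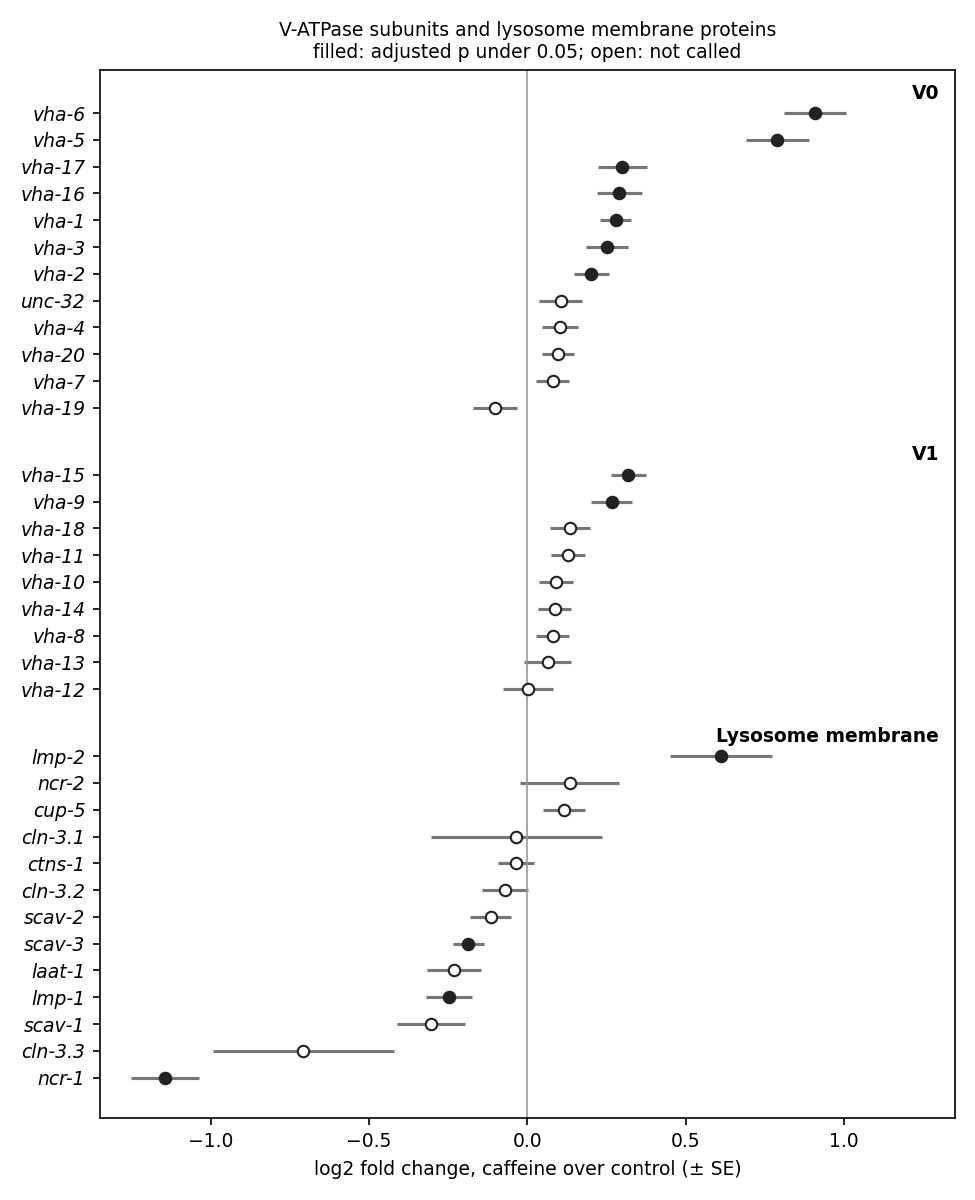
Log2 fold change (caffeine over control, x axis) of each of the 34 genes (rows), with its standard error as a bar; filled points had an adjusted p under 0.05 in the edgeR quasi-likelihood test and open points did not. vha-6 at 0.91 and ncr-1 at -1.14 lie at the ends, and 20 of 21 pump genes lie above 0, as do 49.9% of all tested genes.

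Summed over its members, V0 reached 2136, 2271 and 2184 CPM in caffeine libraries 1 to 3, against 1908, 1808 and 1869 CPM in control libraries 1 to 3. The V1 sum was 1654, 1583 and 1694 CPM with caffeine and 1536, 1510 and 1536 CPM in controls. Neither sector's sums overlapped between the groups. The ratio of the means was 1.18 in V0 and 1.08 in V1. V0 over V1 sums gave ratios of 1.29, 1.44 and 1.29 with caffeine and 1.24, 1.20 and 1.22 in controls. One gene carried much of that gap: vha-6 accounted for 38.5% of the V0 difference of 335.4 CPM, and with vha-6 left out the V0 to V1 ratios overlapped, at 1.13, 1.24 and 1.14 with caffeine and 1.14, 1.10 and 1.13 in controls. Sums weigh abundant genes most and are given as descriptions.

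**Figure D2:**
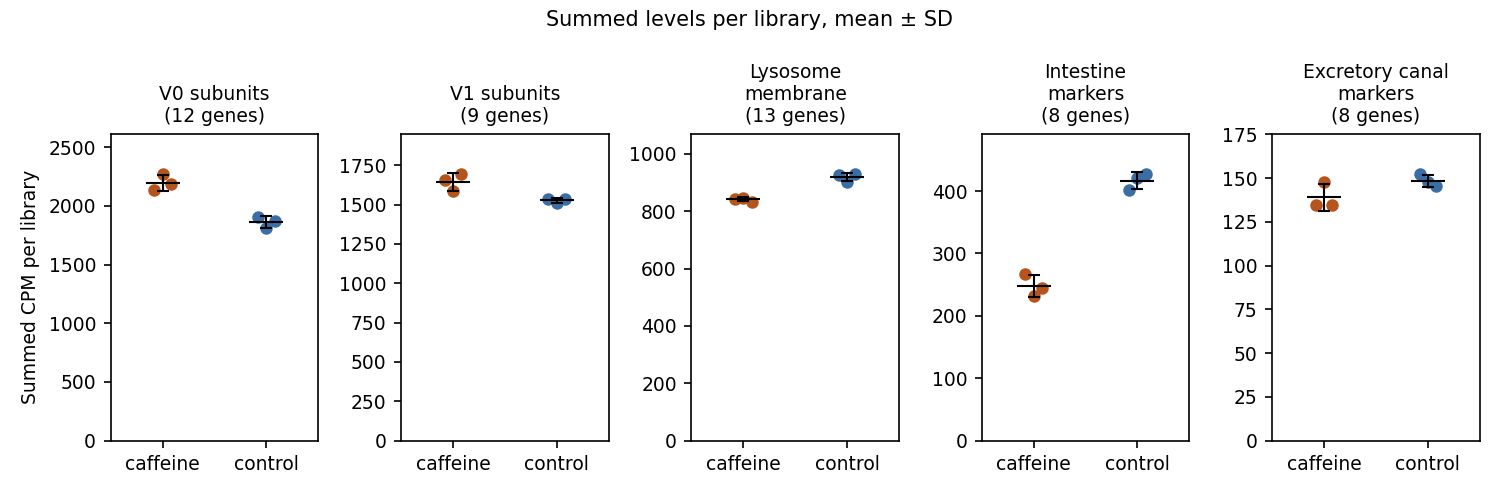
Summed CPM per library (y axes, starting at 0) for the V0 genes, the V1 genes, the lysosome membrane genes and the marker lists of intestine and excretory canal, with caffeine left of control in each panel; points are libraries and bars the mean ± SD of 3. V0 sums lie between 2136 and 2271 CPM with caffeine, above the 1808 to 1908 CPM of controls, while intestine marker sums lie lower with caffeine.

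The a subunit of V0 anchors the stator and largely determines where a pump is placed. C. elegans has 4 genes for it, and these showed the widest range of responses in the complex. VHA-6 is known from the apical membrane of the intestine. VHA-5 is known from the excretory canal and epidermis, VHA-7 from epidermis and uterus, and UNC-32 from neurons and many other cells. Caffeine went with higher vha-6 and vha-5, while vha-7 and unc-32 were not called.

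vha-6 (chromosome II, 11435210 to 11438452, minus strand) had 261, 309.5 and 258 CPM in caffeine libraries, against 163, 146 and 132 CPM in control libraries. Every caffeine library lay above every control. Its log2 fold change was 0.91 (SE 0.10), a 1.88-fold level (edgeR adjusted p = 0.000497). This rise exceeded that of 91.9% of tested genes. vha-5 (chromosome IV, 8303968 to 8307371, plus strand) had 45.0, 55.2 and 52.7 CPM with caffeine, against 32.7, 28.0 and 27.7 CPM in controls. Here too the groups were apart. vha-5 rose by a log2 fold change of 0.79 (SE 0.10, edgeR adjusted p = 0.00108). F35H10.10, which overlaps the vha-5 locus by 57 bp on the opposite strand, rose by a log2 fold change of 0.81, with counts equal to 56.2% of those of vha-5. The strand setting of the counting is not given in the sources used here, and the share of vha-5 counts from the overlap was not tested. With any single library left out, vha-6 and vha-5 stayed past the threshold.

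unc-32 had 284, 316 and 289 CPM with caffeine, against 270.5, 262.5 and 293 CPM in controls. These ranges overlapped, since control library 3 exceeded caffeine libraries 1 and 3. The log2 fold change was 0.11 (SE 0.07, edgeR adjusted p = 0.276). vha-7 had 252, 255 and 257 CPM with caffeine and 241, 231 and 250.4 CPM in controls, a log2 fold change of 0.08 (SE 0.05). The vha-7 groups did not overlap, as in 44.2% of all tested genes, but its edgeR adjusted p was 0.288.

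Scaled by exon length, the order among the a subunits differed between the groups. vha-6 led in every caffeine library, at 96.9, 114.7 and 95.6 CPM per kilobase, and was below unc-32 and vha-7 in every control library at 60.4, 54.1 and 49.0. unc-32 led in controls at 74.6, 72.4 and 81.0 CPM per kilobase and had 78.3, 87.2 and 79.8 with caffeine. vha-6 made up 38.3% ± 1.64 of the length-scaled a-subunit level with caffeine and 26.96% ± 2.57 in controls (mean ± SD, n = 3 libraries each). The unc-32 share was 30.7% ± 0.161 with caffeine and 37.6% ± 1.98 in controls, and the vha-7 share was 24.5% ± 1.45 with caffeine and 30.5% ± 0.918 in controls. vha-5 contributed the least, at 6.44% ± 0.458 with caffeine and 4.91% ± 0.360 in controls. Scaled by coding length instead, vha-6 took 34.8% with caffeine and 24.1% in controls, and unc-32 took 35.8% with caffeine and 43.0% in controls, so that unc-32 narrowly led in the caffeine mean.

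The paralogs were also compared within each library, where scaling cancels. The mean log2 ratio of vha-6 to unc-32 was -0.10 ± 0.07 with caffeine and -0.91 ± 0.22 in controls, a difference of 0.80. For vha-6 to vha-7 the difference was 0.83, for vha-5 to unc-32 0.68 and for vha-5 to vha-7 0.71, all without overlap between the groups. These had an exact two-sided permutation p of 0.1, the smallest that n = 3 against 3 can give, and 0.257 after Benjamini-Hochberg adjustment over 18 paralog pairs. The ratio of vha-6 to vha-5 differed by 0.12 and that of vha-7 to unc-32 by -0.02, both with overlap (exact permutation p of 0.3 and 0.8). Differences were thus wide between the pairs vha-6 or vha-5 and vha-7 or unc-32, and narrow within them.

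**Figure D3:**
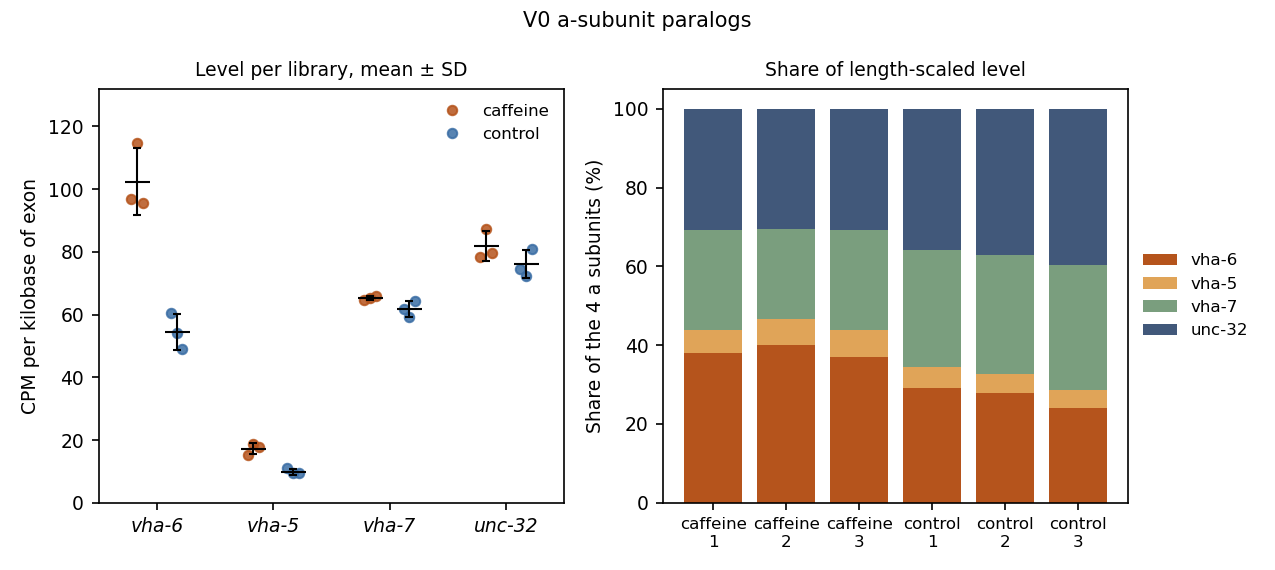
Left, CPM per kilobase of exon for the 4 a-subunit genes, with points for the 3 caffeine libraries left of the 3 control libraries and bars for mean ± SD; right, the share of each gene in the summed a-subunit level of each library (y axis, %). vha-6 takes 38.3% on average with caffeine and 26.96% in controls.

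Markers of the tissues in which these a subunits are known did not all move with them. Of 8 intestine markers, 4 were called lower (elt-2, act-5, ifo-1 and pept-1) and 0 higher (edgeR; 0 also by DESeq2, by limma-voom and at an unadjusted p under 0.05). Summed, the 8 ranged from 232 to 268 CPM with caffeine and from 401.5 to 427 CPM in controls, opposite in direction to vha-6. Most of that difference was act-5, with a mean of 106 CPM with caffeine and 232 CPM in controls. The uncalled elt-7, ges-1, ifb-2 and pgp-1 had log2 fold changes of -0.03, -0.03, -0.04 and 0.36. act-5, an actin of the intestinal microvilli, had a log2 fold change of -1.12, and pept-1, an intestinal peptide transporter, of -1.15. Of 8 excretory canal markers 1 was called higher (sulp-4) and 1 lower (exc-5), with sums of 134 to 148 CPM with caffeine and 146 to 152 CPM in controls. Of 8 epidermis markers 1 was called higher (col-19), and sums ran from 114 to 117 CPM with caffeine and from 48.9 to 68.8 CPM in controls. Most of that difference was col-19 itself, a cuticle collagen gene with a mean of 93.1 CPM with caffeine and 42.9 CPM in controls. Of the 8 epidermis markers, 5 had log2 fold changes above 0 and 3 below. Besides col-19, elt-3, nhr-25, rol-6 and bli-1 were at 0.72, 0.25, 1.81 and 1.70. Levels of rol-6 and bli-1 were low, with means of 0.68 and 0.58 CPM with caffeine. dpy-7, che-14 and wrt-10 were at -0.60, -0.17 and -0.04. DESeq2 and limma-voom each called 2 epidermis markers higher. Of 8 neuron markers 2 were called higher (ric-4 and snt-1) and 1 lower (unc-64). Neuron sums ran from 223 to 227 CPM with caffeine and from 217 to 228 CPM in controls. Most of each neuron sum was snb-1, with a mean of 172 CPM with caffeine and 167 CPM in controls. rol-6 was at 0 counts in 1 control library, and no other marker of these 4 tissues was at 0. Marker sums of germline, muscle and coelomocytes also lay apart between the groups. Of 8 germline markers 2 were called lower (pgl-1 and cpb-3) and all 8 had log2 fold changes below 0, with sums of 5229 to 6417 CPM with caffeine and 6772 to 6840 CPM in controls. Among the 5848 tested genes with at least 1000 counts on average, 14.1% were called lower and 3559 had log2 fold changes below 0. With 1 library left out, pgl-1 passed in 1 of 6 fits and cpb-3 in all 6. Of 5 muscle markers 2 were called higher (myo-3 and unc-54), with sums of 490 to 641 CPM with caffeine and 396 to 451 CPM in controls. Most of that difference was unc-54, with a mean of 215 CPM with caffeine and 132 CPM in controls. The uncalled unc-15, unc-27 and mup-2 had log2 fold changes of 0.31, -0.07 and -0.02. Of 3 coelomocyte markers 1 was called higher (cup-4), with sums of 17.99 to 18.5 CPM with caffeine and 14.3 to 16.6 CPM in controls. cup-4 itself had a mean of 11.5 CPM with caffeine and 8.1 CPM in controls. The uncalled unc-122 and lgc-26 had log2 fold changes of -0.21 and 0.06. These marker shifts, some up and some down, were seen in the same libraries as the pump and lysosome membrane values. The part of tissue content in any of those values was not tested.

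The c subunits are the proteolipids that form the proton-carrying ring. vha-1, vha-2 and vha-3 encode them, and all were called higher by small amounts. vha-1 (chromosome III, 9781254 to 9781763, plus strand) had 172, 184 and 173 CPM with caffeine, against 145, 144 and 147 CPM in controls. The groups were well apart in relation to their spread, with a log2 fold change of 0.28 (SE 0.05, edgeR adjusted p = 0.00568). vha-1 stayed past the threshold in all 15 alternative fits. vha-2 (chromosome III, 9782164 to 9783224, plus strand), the most abundant of the 34 genes per kilobase of exon, had 421, 422 and 410 CPM with caffeine, against 376, 356 and 356.5 CPM in controls. vha-3 (chromosome IV, 2315460 to 2315945, minus strand) had 42.0, 40.4 and 43.3 CPM with caffeine, against 36.2, 36.4 and 33.0 CPM in controls. Neither gene's groups overlapped. The log2 fold change was 0.20 (SE 0.05) for vha-2 and 0.25 (SE 0.07) for vha-3, with edgeR adjusted p of 0.0302 and 0.0293.

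The vha-2 and vha-3 calls did not hold in most fits with 1 library left out. vha-2 missed the threshold without caffeine library 2 or 3 or any one control, at an adjusted edgeR p of 0.0561 to 0.1265. vha-3 missed it without caffeine library 3 or any one control, at 0.0701 to 0.102. vha-1 and vha-2 lie 400 bp apart on the same strand, and vha-3 lies 892 bp upstream of vha-11, the V1 C subunit gene, also on one strand. Neighbours therefore paired genes of one sector in the first case and of both sectors in the second. Within libraries, no ratio among the c-subunit genes differed without overlap, and log2 ratios differed by 0.08 (vha-1 to vha-2), 0.03 (vha-1 to vha-3) and -0.05 (vha-2 to vha-3), with exact permutation p of 0.2, 0.6 and 0.5. Their shares differed by little: vha-2 took 50.1% ± 0.589 of the length-scaled c-subunit level with caffeine and 51.3% ± 0.656 in controls, without overlap. Shares among these genes depend on the gene models, since the annotated vha-1 and vha-3 models are 510 and 486 bases long with coding lengths of 507 and 483, while that of vha-2 is 964 bases with a coding length of 483. By coding length vha-2 took 66.5% with caffeine and 67.6% in controls. R10E11.6 overlaps vha-2 by 219 bp on the same strand and had a log2 fold change of 0.03, with counts equal to 5.02% of those of vha-2.

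Of the remaining V0 genes, vha-16 and vha-17 were called. vha-16 (chromosome I, 5079910 to 5082279, minus strand), the d subunit that couples the ring to the central stalk, had 210.5, 247 and 239 CPM with caffeine, against 198, 181 and 190.5 CPM in controls. vha-17 (chromosome IV, 9321801 to 9322525, plus strand), the small e subunit, had 69.2, 79.5 and 80.5 CPM with caffeine, against 65.7, 58.0 and 62.5 CPM in controls. In both genes the groups did not overlap, and caffeine library 1 lay nearest to the controls. Log2 fold changes were 0.29 (SE 0.07) and 0.30 (SE 0.08), with edgeR adjusted p of 0.0221 and 0.0252. Leaving out caffeine library 2 or 3, or control library 2 or 3, took the adjusted edgeR p above the threshold, to between 0.0645 and 0.0906 for vha-16 and between 0.0676 and 0.0977 for vha-17. nspg-11 overlaps vha-17 by 37 bp on the opposite strand, with counts equal to 10.98% of those of vha-17 and a log2 fold change of 0.52.

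The other V0 genes were not called. vha-4, the c'' proteolipid, had 131 to 144 CPM with caffeine and 122.1 to 132 CPM in controls. vha-20, homologous to the mammalian prorenin receptor, had 63.6 to 66.6 CPM with caffeine and 60.03 to 61.3 CPM in controls, without overlap. Their log2 fold changes were 0.10 and 0.10, with edgeR adjusted p of 0.213 and 0.190. vha-19, an accessory protein related to mammalian Ac45, had the only negative value among the 21 pump genes, -0.10 (SE 0.07), with 182, 155 and 180 CPM in caffeine libraries 1 to 3 and 188, 181 and 185 CPM in controls. Its edgeR adjusted p was 0.3005, and caffeine library 2 alone lay far below the rest. otub-4 overlaps vha-19 by 99 bp on the opposite strand, with counts equal to 65.2% of those of vha-19 and a log2 fold change of -0.15.

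In V1, vha-15 and vha-9 were called. vha-15 (chromosome X, 2237911 to 2240255, plus strand), which encodes the regulatory H subunit, had 127, 136 and 141.6 CPM with caffeine, against 109, 109 and 107 CPM in controls. The controls differed little among themselves, and no caffeine library came near them. Its log2 fold change was 0.32 (SE 0.05, edgeR adjusted p = 0.00463), and it passed in all 15 alternative fits. vha-9 (chromosome II, 10303050 to 10303713, minus strand), the F subunit of the central stalk, had 107, 118 and 116 CPM with caffeine, against 98.6, 88.1 and 97.3 CPM in controls. Its log2 fold change was 0.27 (SE 0.06, edgeR adjusted p = 0.0199). Without caffeine library 2, caffeine library 3 or control library 2 that p became 0.0616, 0.0657 and 0.0798.

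The H subunit has a second gene, vha-18, on chromosome V. It had 129, 141.7 and 142.4 CPM with caffeine and 124, 118.9 and 132 CPM in controls, with overlap. vha-18 was not called (log2 fold change 0.14, SE 0.06, edgeR adjusted p = 0.150), except without caffeine library 1, where the p was 0.0398. Of the length-scaled H-subunit level, vha-18 took 55.0% ± 0.434 with caffeine and 58.1% ± 1.597 in controls. The log2 ratio of vha-18 to vha-15 was 0.03 ± 0.03 with caffeine and 0.21 ± 0.09 in controls without overlap, with an exact permutation p of 0.1 and an adjusted p of 0.257.

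The other V1 subunits were not called. vha-13, the catalytic A subunit, had 395, 327 and 354 CPM with caffeine and 345, 342.5 and 342 CPM in controls. vha-12, the B subunit that alternates with A in the V1 head, had 237.5, 194 and 230.5 CPM with caffeine and 217, 225 and 218 CPM in controls. In both, caffeine library 1 was highest and caffeine library 2 lowest of all 6, so that the caffeine spread bracketed the controls. Their log2 fold changes were 0.06 (SE 0.07) and 0.003 (SE 0.08), with edgeR adjusted p of 0.547 and 0.982. vha-8 (E), vha-10 (G), vha-14 (D) and vha-11 (C) had log2 fold changes of 0.08, 0.09, 0.09 and 0.13. Each of these had groups without overlap but an edgeR adjusted p between 0.113 and 0.2797. Groups without overlap occurred in 9 of 12 V0 genes and 6 of 9 V1 genes, beside 44.2% of all tested genes and 44.4% of those with at least 1000 counts on average.

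Per kilobase of exon, V1 transcripts spanned a narrower range than V0 transcripts. V1 levels ran from 72.3 for vha-11 to 219.8 for vha-9 CPM per kilobase with caffeine and from 61.3 for vha-15 to 195 for vha-8 in controls. In controls, vha-8, vha-9, vha-10 and vha-14 lay at 195, 183, 177 and 172 CPM per kilobase, with SD up to 11.1. With caffeine these levels were 206, 220, 188 and 182. In V0 the levels ran from 433 for vha-2 to 17.2 for vha-5 with caffeine and from 376 for vha-2 to 9.94 for vha-5 in controls. Both ends of the V0 range were thus genes of the c and a paralog groups. Outside those groups, vha-4, vha-16, vha-17, vha-19 and vha-20 lay at 131, 129, 112, 96.1 and 49.4 in controls.

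Among the 13 lysosome membrane protein genes, the summed level was 842, 847 and 833 CPM with caffeine, against 926.5, 903 and 929 CPM in controls. As a share of all counts, without composition scaling, the sums were 0.0808%, 0.0903% and 0.0849% with caffeine and 0.0922%, 0.0883% and 0.0913% in controls, which overlap. Groups without overlap occurred in 6 of these 13 genes (46.2%), close to the 44.2% of all tested genes. The list held the largest change of the 34 genes, a fall of ncr-1.

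NCR-1 and NCR-2 are homologues of the human NPC1 protein, which moves sterols out of late endosomes and lysosomes, and worms depend on sterols from their food. ncr-1 (chromosome X, 4472244 to 4488857, minus strand) had 18.1, 18.2 and 15.1 CPM with caffeine, against 41.4, 38.4 and 33.9 CPM in controls. The highest caffeine library had less than the lowest control. ncr-1 fell by 1.14 on the log2 scale (log2 fold change -1.14, SE 0.11), to 0.453 of the control level (edgeR adjusted p = 0.000246). Only 3.58% of tested genes had a lower value, and ncr-1 stayed past the threshold in all 15 alternative fits. ncr-2 was rare, with 93, 115 and 108 counts with caffeine and 92, 102 and 86 counts in controls. The counts of ncr-2 overlapped, and its log2 fold change was 0.13 (SE 0.16, edgeR adjusted p = 0.558). The ncr-2 share of the length-scaled pair was 15.4% ± 1.82 with caffeine and 6.98% ± 0.649 in controls. The log2 ratio of ncr-2 to ncr-1 differed by 1.2801 without overlap, with an exact permutation p of 0.1 and an adjusted p of 0.257. Of 8 intestine markers, 4 were called lower and 4 were not called, as given above. The part of intestine content in the fall of ncr-1 was not tested.

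The LAMP-like glycoprotein genes moved in opposite directions. lmp-1 (chromosome X, 6376459 to 6377684, minus strand), a standard marker of worm lysosomes, had 143, 122.9 and 125 CPM with caffeine, against 147, 163 and 154 CPM in controls. lmp-2 (chromosome X, 1125615 to 1128307, plus strand) had 5.52, 8.19 and 7.38 CPM with caffeine, against 4.76, 4.21 and 4.85 CPM in controls. The groups did not overlap in either gene, and caffeine library 1 lay nearest to the controls in both. lmp-1 had a log2 fold change of -0.25 (SE 0.07) and lmp-2 of 0.61 (SE 0.16), with edgeR adjusted p of 0.0400 and 0.0278. Both calls held in the fit without caffeine library 1 but in none of the fits without 1 of the other libraries, where the adjusted edgeR p ran from 0.0641 to 0.138 for lmp-1 and from 0.0572 to 0.103 for lmp-2. Even so, lmp-1 made up 95.1% ± 1.26 of the length-scaled pair with caffeine and 97.2% ± 0.318 in controls. Their log2 ratio differed by 0.84 without overlap (exact permutation p of 0.1, adjusted 0.257).

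**Figure D4:**
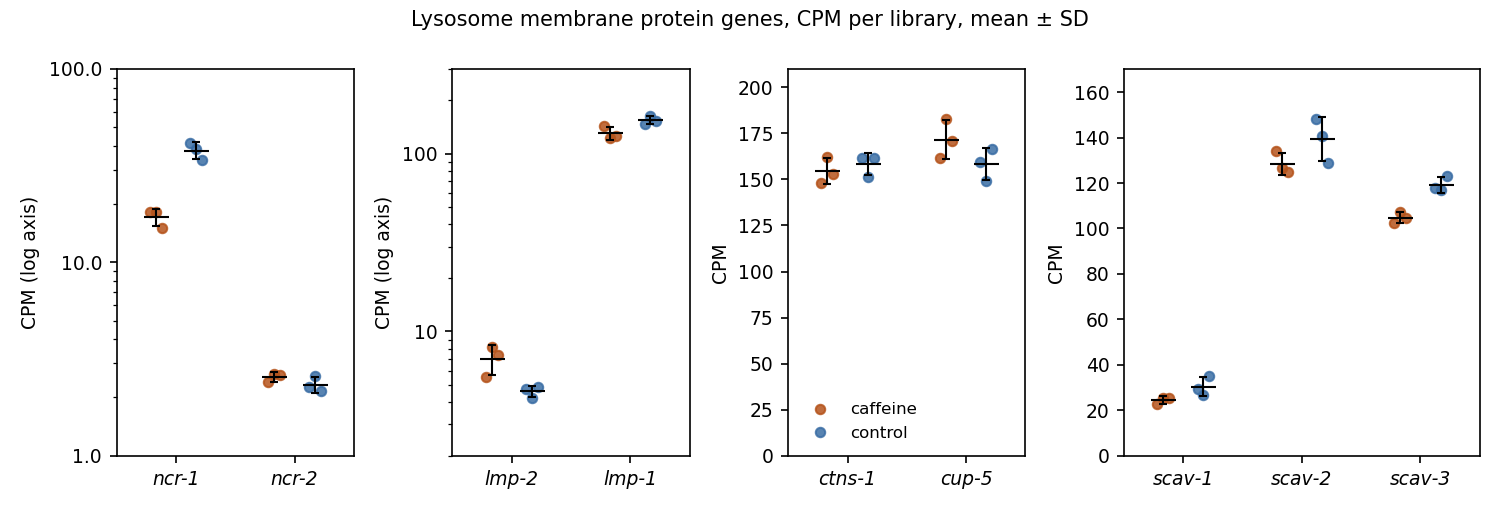
CPM per library for 9 lysosome membrane protein genes, with the 3 caffeine libraries left of the 3 control libraries for each gene and bars for mean ± SD; the panels for ncr and lmp genes have log axes and the others start at 0. ncr-1 lies between 15.1 and 18.2 CPM with caffeine and between 33.9 and 41.4 CPM in controls.

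The scav genes encode CD36-family scavenger receptors, and SCAV-3 is known as a lysosomal membrane protein that maintains lysosome integrity. scav-3 (chromosome III, 12453588 to 12456850, minus strand) had 102, 107 and 104 CPM with caffeine, against 118, 117 and 123.0 CPM in controls. The groups were narrow and apart. Its log2 fold change was -0.19 (SE 0.05, edgeR adjusted p = 0.0279). Scaling by library totals or upper quartiles took that p to 0.156 and 0.0589, and leaving out caffeine library 3 or any one control took it to between 0.0707 and 0.103. scav-1 had 22.7 to 25.6 CPM with caffeine and 26.8 to 34.9 CPM in controls, without overlap, and scav-2 had 125 to 134 CPM with caffeine and 129 to 148 CPM in controls, with overlap. Their log2 fold changes were -0.30 (SE 0.11) and -0.12 (SE 0.06), with edgeR adjusted p of 0.0725 and 0.210. DESeq2 gave scav-1 an adjusted p of 0.0379.

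Amino acid exporters and the calcium channel of the lysosome were not called. LAAT-1 exports lysine and arginine from lysosomes. laat-1 had 78.6, 63.4 and 75.6 CPM with caffeine and 84.0, 81.6 and 89.7 CPM in controls, apart but with a wide caffeine spread. The laat-1 log2 fold change was -0.23 (SE 0.09, edgeR adjusted p = 0.0826), or 0.0314 without caffeine library 1. ctns-1, the homologue of the cystine exporter cystinosin, had 148 to 162 CPM with caffeine and 151.5 to 162 CPM in controls and a log2 fold change of -0.04. cup-5, the homologue of the mucolipin calcium channel, had 162 to 183 CPM with caffeine and 149 to 167 CPM in controls and a log2 fold change of 0.12. Their edgeR adjusted p was 0.672 and 0.228.

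The cln-3 genes are homologues of human CLN3, a lysosomal membrane protein lost in Batten disease. cln-3.2 was the main one, with 22.8 to 23.8 CPM with caffeine and 23.6 to 25.9 CPM in controls, and made up 86.3% ± 3.51 of the summed length-scaled cln-3 level with caffeine and 84.1% ± 2.29 in controls. cln-3.1 had 68, 103 and 159 counts with caffeine and 113, 106 and 109 counts in controls. cln-3.3 had 1.11, 1.45 and 1.48 CPM with caffeine and 2.18, 1.46 and 2.97 CPM in controls. All overlapped between the groups. Log2 fold changes were -0.07 for cln-3.2, -0.03 for cln-3.1 (SE 0.27) and -0.71 (SE 0.29) for cln-3.3, with edgeR adjusted p of 0.491, 0.939 and 0.105. Without control library 2, the adjusted edgeR p of cln-3.3 was 0.0452. At between 43 and 159 counts per library, the SE was 0.27 for cln-3.1 and 0.29 for cln-3.3, beside log2 fold changes of 0.28 for vha-1 and 0.20 for vha-2.

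A list of 24 other genes of pump assembly, lysosomal transport and lysosomal traffic was examined beside these, of which 23 were found by symbol and tested and ostm-1 was not analysed here. In it, 2 of 23 genes were called higher and 4 lower, with a median log2 fold change of -0.03. Over all tested genes 13.8% were called higher and 10.5% lower, so these counts lay not far from those shares. rbc-1, rbc-2 and lmd-3 were lower. rbc-1 and rbc-2, homologues of rabconnectin, which assists V1 and V0 assembly in other animals, changed by -0.50 (SE 0.10) and -0.40 (SE 0.08) on the log2 scale. rbc-1 had 89.5, 67.3 and 72.3 CPM with caffeine, against 114, 103 and 105 CPM in controls, and rbc-2 had 65.6, 54.5 and 56.4 CPM with caffeine, against 76.4, 76.0 and 79.8 CPM in controls. lmd-3, related to mammalian OXR1, fell by 0.21 on the log2 scale. The edgeR adjusted p was 0.0112, 0.00786 and 0.0288 for rbc-1, rbc-2 and lmd-3. With 1 library left out, lmd-3 passed only without caffeine library 1, and otherwise its adjusted edgeR p was 0.0606 to 0.108.

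Among spinster homologues, which encode lysosomal efflux transporters, spin-1 had 16.1, 19.98 and 19.4 CPM with caffeine, against 9.83, 10.1 and 8.94 CPM in controls. spin-4 had 33.8, 30.3 and 28.6 CPM with caffeine, against 43.4, 40.1 and 43.1 CPM in controls. The spin-1 and spin-4 groups were apart, in opposite directions, with a log2 fold change of 0.94 (SE 0.11) for spin-1 and -0.45 (SE 0.08) for spin-4 and edgeR adjusted p of 0.000724 and 0.00541. spin-4 values were not whole in 2 libraries. haf-9, an ABC transporter of intestinal lysosome-related organelles, rose by a log2 fold change of 0.42 (SE 0.10, edgeR adjusted p = 0.0168), and that p became 0.0514 without caffeine library 2 and 0.0568 without control library 2. hlh-30, the worm homologue of the lysosomal gene regulator TFEB, had 51.8, 39.2 and 44.8 CPM with caffeine and 49.0, 50.6 and 47.5 CPM in controls. Its groups overlapped, and the log2 fold change was -0.12 (edgeR adjusted p = 0.415). rab-7, arl-8, glo-1, ppk-3 and the 6 vps genes of lysosome tethering were not called either, with log2 fold changes between -0.20 for vps-18 and 0.44 for glo-1; vps-18 passed only without caffeine library 1, at an adjusted edgeR p of 0.0158. spin-2 had 2.52 to 2.96 CPM with caffeine and 1.39 to 2.17 CPM in controls, with an edgeR adjusted p of 0.0525, and passed in 7 of 15 alternative fits.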

How the data were processed

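Libraries were stranded and polyA-selected and were read from both ends, per the labels' protocols. The authors deposited expected counts per WormBase gene ID, 1 file per library, not scaled by depth or length, per the file headers. STAR 2.7.0e, RSEM 1.3.1 and the builds WBcel235 and ce11 are named in the submitters' processing notes. The annotation release and strand setting are not given in the sources used here. Coordinates, exon union lengths and coding lengths came from Ensembl release 115 of WBcel235, attached by gene ID.

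Expected counts were rounded and filtered with filterByExpr of edgeR 4.0.16 (minimum count 10, minimum total 15), scaled by TMM (factors 0.960 to 1.07) and tested with the edgeR quasi-likelihood test in R 4.3.3 on all 6 libraries without covariates. P-values were adjusted by Benjamini-Hochberg over 14200 genes, with calls at 0.05. The SE is the log2 fold change divided by the root of F. CPM carry the TMM factors. Paralog ratios used exact two-sided permutation tests (scipy 1.17.1). Alternatives used DESeq2 1.42.0, limma 3.58.1, other scalings and filters, a robust dispersion, a replicate block, and 1 library left out at a time. The titles do not say whether equal replicate numbers were handled together, so the block was fitted as an alternative only. The test was tested on simulated counts. Of 50 genes given a 1.25-fold change 20% were called in the right direction, and of 50 given a 1.5-fold change 58%. Of 13779 unchanged genes 0.0581% were called. Far fewer genes were changed in the simulation than were called in the data, so these rates need not hold for the data. A gene without a call is thus not shown to be unchanged. Groups came from the titles, and the labels call the samples biological replicates. No batch is labelled.

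The members and lists were chosen with earlier results of these data known. Each member was named; called members and the leading paralogs got values per library, and of the other lysosome genes all called ones were named. hlh-30, vps-18 and the other uncalled genes named from that list, and sentences on overlapping genes, were added after values were seen.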

Additional observations from a re-analysis of the deposited data

How the results depend on the processing

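Of 13 called members, 5 (vha-6, vha-5, vha-1, vha-15 and ncr-1) stayed past the threshold in all 15 alternative fits, and 0 changed direction in any of them. Under the other scalings, filters, dispersion setting, DESeq2 and limma-voom, V0 had 7 and V1 had 2 genes called higher, and lysosome membrane proteins had 1 higher and between 2 and 4 lower. Library totals moved the median of all genes by 0.04 on the log2 scale, and the share of higher genes among all calls ran from 51.8% to 61.0% over these fits, against 56.9%. With the replicate block, V0 had 3 and V1 had 1 called higher, and lysosome membrane proteins had 0 higher and 1 lower. Same-numbered libraries deviated together at correlations of -0.18, -0.16 and 0.25, and not every library correlated best with its own number. Deviations from a mean of 3 libraries are linked, so these correlations cannot decide whether equal numbers were handled together. With 1 library left out, fewer samples enter the fit. Genes called over all tested genes then ran from 1209 to 2264 higher and from 698 to 2512 lower. V0 had 3 to 7 higher, V1 had 1 to 3 higher, lysosome membrane proteins had 0 to 1 higher and 1 to 4 lower, and the other lysosome genes had 1 to 3 higher and 3 to 5 lower. Without control library 2, all genes had 1209 higher and 698 lower, and without caffeine library 1 there were 2512 lower.

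Log2 fold changes that turned sign belonged to genes near 0 that were not called. vha-12 was at -0.0059 with DESeq2 and with median-of-ratios scaling, -0.0021 with limma-voom, -0.0001 with no filter and -0.0022 with the block, and ran from -0.057 to 0.0895 with 1 library left out. vha-13 was at -0.013 without caffeine library 1 (up to 0.13). ctns-1 was at 0.0102 and cln-3.1 at 0.014 with library totals, and cln-3.1 ran from -0.40 to 0.19 with 1 library left out. With library totals rab-7, vps-11 and vps-16 were at 0.0046, 0.018 and 0.018, and with upper quartiles vps-11 and vps-16 were at 0.003 and 0.0037. With 1 library left out they ran from -0.14 to 0.0194, -0.0658 to 0.0043 and -0.0763 to 0.023. The cause of these changes was not tested.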
